A study of Mus musculus with 15 samples.

Results

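A set of 10 p53 target genes with known roles in metabolism and DNA repair were followed through erythroid progenitors of the mouse fetal liver that carry a mutation of Rpl5, a protein of the large ribosomal subunit. They are Sesn1, Sesn2, Phlda3, Tigar, Ak1, Trp53inp1, Rrm2b, Polk, Xpc and Ddb2. The 10 genes were taken by name from the 55487 mouse genes of the deposited count tables, with earlier results of these data known. All 10 passed the filter on low counts in each comparison. The study sequenced RNA from embryos of the strain 129S6/SvEvTac at stage E12.5, in 15 libraries that fall into 5 groups of 3. In group 1 of mice, wildtype embryos were set beside mutant ones, and polyA RNA is given as the molecule. In group 2 a low-yield mutant arm was added to the wildtype and mutant arms, and the molecule is total RNA. The sample sheet of group 2 writes the genotype of both mutant arms as Rpl5plusSkax23Jus, and for group 1 the labels say only that the embryos were mutant. What "low-yield" refers to and how the progenitors were isolated are not given in the sources used here, nor is it stated that replicates came from separate embryos. The p values therefore measure the spread between these libraries, which may in part be technical.

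p53 is a transcription factor that is held at low levels by the ubiquitin ligase Mdm2. When ribosome assembly is disturbed, free Rpl5 and Rpl11 can bind Mdm2 together with a ribosomal RNA, and p53 accumulates. Its best known targets stop the cell cycle or start apoptosis, but others temper growth signalling, redirect sugar metabolism, supply deoxynucleotides or take part in the repair of damaged DNA. The genes described here belong to this latter class. Erythroid progenitors of the fetal liver divide quickly while they build up haemoglobin, and anemia is the leading feature of Diamond Blackfan anemia syndrome, the disorder named in the title of the study, in which ribosomal protein genes such as RPL5 are mutated.

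The libraries held 48510828 to 58513669 counts in group 1 and 24954324 to 44827821 in group 2. Rpl5 itself was lower in every mutant arm than in its wildtype, by 1.25-fold in group 1 (log2 fold change -0.32, adjusted p = 0.00971), 1.38-fold in group 2 (-0.46, 0.0117) and 1.35-fold in the low-yield arm (-0.44, 0.00870), with no overlap between libraries. All 21 erythroid markers in the tables were detected. Their summed level was 9117 to 12935 CPM in wildtype and 5972 to 6242 CPM in mutant libraries of group 1. There 14 of 21 were called lower, where 6.78% of all genes were. In group 2 the sum was 12138 to 20089 CPM in wildtype, 8395 to 9941 CPM in mutant and 7230 to 9904 CPM in low-yield mutant libraries. In the mutant 8 of 21 were called lower, where 2.95% of all genes were, and in the low-yield arm 11 of 21, where 5.86% were. The embryonic globin Hbb-bh1, named after its values were seen, was the 1 erythroid marker called higher there, with log2 fold changes of 0.83 in the mutant (adjusted p = 0.0209) and 1.68 in the low-yield arm (adjusted p = 1.93e-04). Levels are in CPM, counts relative to the TMM-adjusted total of each library. The 12 granulocyte markers summed to 18.3 to 38.9 CPM in wildtype, 146 to 240 CPM in mutant and 186 to 400 CPM in low-yield mutant libraries of group 2. In the mutant arm 8 of 12 were called higher, where 3.32% of all genes were, and in the low-yield arm 12 of 12, where 6.68% were. In group 1 the granulocyte sum was 111 to 846 CPM in wildtype and 275 to 1556 CPM in mutant libraries. None of 12 was called there, where 12.6% of all genes were. The 10 hepatocyte markers summed to 35.5 to 65.5 CPM in wildtype and 7.70 to 23.9 CPM in mutant libraries of group 1. Of these, 3 were called lower, where 6.78% of all genes were. In group 2 they summed to 11.4 to 81.6 CPM in wildtype, 11.3 to 51.7 CPM in mutant and 45.7 to 53.3 CPM in low-yield mutant libraries, and none was called in either arm by edgeR. In the low-yield arm 3 of 6 tested megakaryocyte markers were called higher and 1 lower, where 6.68% of all genes were higher and 5.86% lower. The summed megakaryocyte level was 49.5 to 50.8 CPM, against 35.2 to 39.6 CPM in wildtype of group 2. Of 3 tested endothelial markers, all were called higher in the low-yield arm (6.06 to 9.59 CPM, against 0.809 to 1.87 CPM). In the mutant arm of group 2, Pecam1 was the 1 endothelial marker called higher (1.79, adjusted p = 0.00994), with sums of 3.49 to 5.10 CPM. Itga2b was the 1 of 6 tested megakaryocyte markers called higher there (0.77, adjusted p = 0.0135). Of these 6, 3 estimates were above 0 and 3 below, and the megakaryocyte sums of 33.2 to 39.8 CPM overlapped with wildtype. In this arm 3.32% of all genes were called higher. Pecam1 and Itga2b were named after their values were seen. Macrophage markers summed to between 0.980 and 12.2 CPM over the 15 libraries, with Timd4 at 0 in all of them. Over both groups 1 of 4 tested was called higher, where 9.80% of all genes were, and none lower. Mitochondrial genes took 2.36 to 2.81% of counts in wildtype and 1.60 to 1.98% in mutant libraries of group 1, with no overlap, and 0.499 to 1.22% in group 2, where the arms overlapped. The part of these shifts in the results below was not tested. In bulk RNA, fewer cells of a type and less RNA per cell cannot be told apart. Wildtype library 1 of group 2 stood apart from the other wildtype libraries of its group for Tigar, Xpc, Polk and Trp53inp1. Some of the values that rest on it are also given without it.

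Promoter sequences of Phlda3, Polk and Sesn1, 3 of the 4 members called over both groups, are shown because p53 binds DNA at pairs of a palindromic decamer, the p53 consensus half-site. RefSeq (build GRCm38.p6) gave 11 windows for 6 of the 10 genes (Sesn1, Sesn2, Phlda3, Tigar, Ak1 and Polk), and Trp53inp1, Rrm2b, Xpc and Ddb2 were not searched here. Each window reached from 250 bases before to 50 bases after an annotated start. Both strands were searched for the half-site by its published consensus, which reads the same on either strand, and for a pair of half-sites with a spacer of at most 13 bases and at most 2 mismatches. A perfect half-site lay in 2 of the 11 windows, the second start of Sesn1 and the inner start of Polk, and the same 2 windows held a pair. Of all 32851 windows of that length, 8.36% held a perfect half-site and 10.1% a pair. The 250 bases before the start are printed 5' to 3', for Phlda3 at chr1:135765835-135766084 (forward strand), for Polk at chr13:96519188-96519437 (reverse strand) and for Sesn1 at chr10:41887189-41887438 (forward strand). For Polk and Sesn1 the window with a match was chosen, and their other windows, at chr13:96542530-96542829 and chr10:41810324-41810623, held no perfect half-site and no pair. Capitals mark the pair of half-sites with the fewest mismatches.
Phlda3: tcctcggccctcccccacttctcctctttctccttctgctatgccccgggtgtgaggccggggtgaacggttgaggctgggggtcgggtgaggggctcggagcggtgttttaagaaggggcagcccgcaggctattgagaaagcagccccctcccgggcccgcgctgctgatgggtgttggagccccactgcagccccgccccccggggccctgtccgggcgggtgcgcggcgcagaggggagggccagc
Polk: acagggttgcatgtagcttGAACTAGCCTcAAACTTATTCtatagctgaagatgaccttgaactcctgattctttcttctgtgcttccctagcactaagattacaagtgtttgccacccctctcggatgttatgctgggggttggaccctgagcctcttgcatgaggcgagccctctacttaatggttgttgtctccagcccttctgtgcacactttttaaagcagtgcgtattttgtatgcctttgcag
Sesn1: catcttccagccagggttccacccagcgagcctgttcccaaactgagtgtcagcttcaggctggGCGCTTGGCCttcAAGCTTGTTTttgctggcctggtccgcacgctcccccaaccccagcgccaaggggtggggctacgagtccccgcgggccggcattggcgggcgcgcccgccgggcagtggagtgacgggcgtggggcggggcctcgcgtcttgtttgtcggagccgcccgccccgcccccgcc
In the Polk window the pair spans 231 to 211 bases before the start, has a spacer of 1 base and 1 mismatch. In the Sesn1 window it spans 186 to 164 bases before the start, with a spacer of 3 bases and 2 mismatches. The Phlda3 window holds neither a perfect half-site nor such a pair, which says only that these letters are not in this window. A match is a description of the sequence, and no binding was measured.

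Over both groups of mice, Phlda3, Trp53inp1 and Polk were higher and Sesn1 was lower in mutant progenitors. The other 6 genes did not pass the test. Ddb2 passed with the replicate number as a block (adjusted p = 0.0419), but that block also uses the numbers in group 2, where they did not pair the libraries. A gene is called here where the edgeR quasi-likelihood test gave an adjusted p under 0.05 over all genes tested. Phlda3, which restrains the growth kinase Akt, was 2.35-fold higher, Trp53inp1, a p53-inducible stress protein, 2.71-fold and Polk, a DNA polymerase that copies past damaged bases, 1.49-fold. Sesn1, a negative regulator of growth signalling through mTORC1, was 1.25-fold lower. Thus 4 of 10 were called in the 12 wildtype and mutant libraries, where 19.6% of all 15954 genes tested were, and 3 of the 4 were higher, where 9.80% of all genes were called higher. The median log2 fold change of the 10 genes was -0.07, against -0.00 for all genes. Wildtype and mutant libraries did not overlap within either group for 1 gene, Phlda3, against 12.1% of all genes. Lower calls likewise made up 9.80% of all genes. The 4 calls held under all of the other settings and left-out libraries that gave a value, 19 for Phlda3, Sesn1 and Polk and 18 for Trp53inp1.

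In group 1 the same 4 genes were called, 3 higher and 1 lower, where 12.6% of 14048 genes were called (1766 genes, or 2863 with the replicate number as a block). Higher calls made up 5.79% and lower calls 6.78% of all genes. The mutant libraries lay wholly above the wildtype ones for Phlda3, Trp53inp1 and Polk, and wholly below them for Sesn1, Ddb2 and Ak1, while 31.6% of all genes had no overlap in this group. The median of the 10 genes was -0.06, that of all genes 0.01. Without wildtype library 2, the count of members called dropped to 2 of 10, because Sesn1 and Polk no longer passed. On all libraries with the replicate number as a block, Ddb2 was called lower as well (adjusted p = 0.0310).

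In group 2, Phlda3 was the 1 gene of 10 that was called, where 6.27% of 15024 genes were (3.32% higher and 2.95% lower). It was also the 1 gene whose mutant libraries all lay apart from the wildtype ones, as was the case for 23.2% of all genes. The median log2 fold change of the 10 was -0.06, against -0.01 for all genes. In the low-yield mutant arm 1 of 10 was called higher, Phlda3, where 6.68% of all genes were, and 1 lower, Sesn2, where 5.86% were. Sesn2 was no longer called, and Phlda3 alone remained, without low-yield library 1, low-yield library 2 or wildtype library 2 of group 2. Low-yield and wildtype libraries did not overlap for Phlda3, Sesn1 and Sesn2, against 29.9% of all genes, and the medians were -0.04 for the 10 and -0.00 for all genes. The mutant and low-yield comparisons share their wildtype libraries.

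Set directly against the other mutants of group 2, the low-yield mutants had none of the 10 genes called by edgeR, where 0% of all genes were. At an unadjusted p under 0.05 there was 1 of the 10, Phlda3, and 480 of 15024 genes, and DESeq2 called 6 and limma voom 4 of all genes. Rrm2b was the 1 gene of 10 without overlap between these arms, against 8.21% of all genes. The median of the 10 was -0.09, that of all genes 0.00. The test of whether the genotype effect differed between the groups of mice called none of the 10 and 3 of 15954 genes (0.0188%), with 342 genes at an unadjusted p under 0.05. Of the 10, Trp53inp1 alone was below that unadjusted level.

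**Figure D1:**
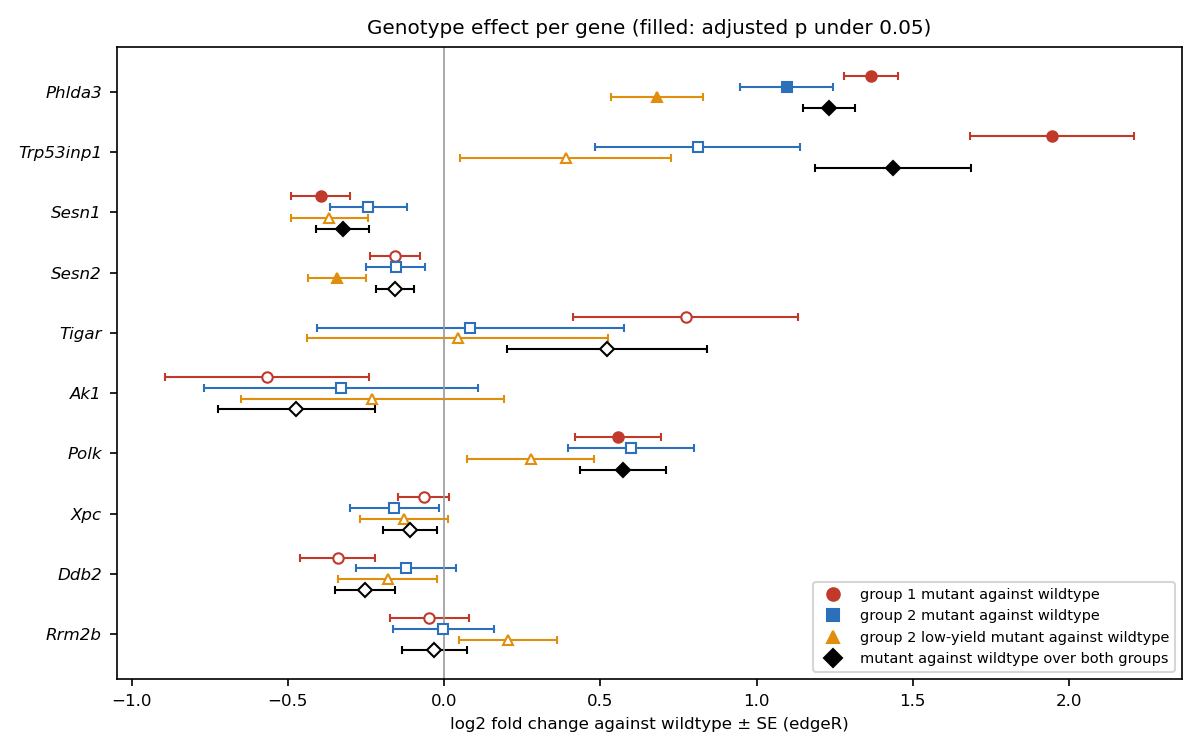
Log2 fold change against wildtype (horizontal axis) with its SE for each of the 10 genes, in group 1, in group 2, in the low-yield arm of group 2 and over both groups of mice; filled symbols have an adjusted p under 0.05. Phlda3 is filled in all 4 comparisons, and Rrm2b and Xpc lie within 0.21 of 0 in each.

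Phlda3 had the smallest adjusted p of the 10 genes in group 1, in group 2, in the low-yield arm and over both groups. It encodes a small protein with a pleckstrin homology domain that competes with Akt for membrane phosphoinositides. The gene (ENSMUSG00000041801) is protein-coding and lies on chromosome 1 at 135766119 to 135769136 (GRCm38, forward strand). In group 1 its CPM were 22.1, 24.8 and 22.6 in wildtype and 58.5, 64.8 and 55.9 in mutant libraries. In group 2 wildtype gave 36.0, 33.2 and 41.1, mutant 75.5, 67.9 and 92.2 and low-yield mutant libraries 69.5, 46.7 and 61.0. No mutant library came down to the level of its wildtype, and the low-yield libraries reached from below the mutant range into it. The log2 fold change was 1.37 (SE 0.09, adjusted p = 5.46e-06) in group 1, 1.10 (SE 0.15, adjusted p = 0.00106) in group 2 and 0.68 (SE 0.15, adjusted p = 0.00839) in the low-yield arm. Over both groups it was 1.23 (SE 0.08, adjusted p = 8.03e-09). Low-yield mutants were at -0.41 (SE 0.14) relative to the other mutants, with an unadjusted p of 0.0128 and an adjusted p of 1.00. The interaction with the group of mice was -0.25 (SE 0.16, unadjusted p = 0.136). With 1 library left out, low-yield against other mutants gave -0.54 to -0.27 and the interaction -0.42 to -0.17. Another setting gave the interaction as -0.05.

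Trp53inp1 had the largest fold change of the 10 in group 1 and over both groups, at a low level of expression. Its product is a nuclear stress protein that binds p53 and can take part in autophagy. The gene (ENSMUSG00000028211) is protein-coding and lies on chromosome 4 at 11156431 to 11174379, forward strand. CPM in group 1 were 1.10, 1.73 and 2.07 in wildtype and 5.47, 7.80 and 5.81 in mutant libraries, with no overlap. In group 2 they were 1.14, 3.21 and 3.23 in the wildtype arm, 3.09, 5.41 and 5.16 in the mutant arm and 3.39, 2.86 and 3.88 in the low-yield arm, and both mutant arms overlapped with wildtype. The raw counts behind these values ran from 36 to 387. The log2 fold change was 1.95 (SE 0.26, adjusted p = 8.95e-04) in group 1 and 1.44 (SE 0.25, adjusted p = 4.65e-04) over both groups. In group 2 it was 0.81 (SE 0.33, adjusted p = 0.166), and in the low-yield arm 0.39 (SE 0.34, adjusted p = 0.511). Wildtype library 1 of group 2 was the lowest for this gene, and without it the values were 0.51 (adjusted p = 0.291) in group 2, 0.09 (0.881) in the low-yield arm and 1.35 (0.00135) over both groups. The effect in group 2 minus that in group 1 was -1.12 (SE 0.46), with an unadjusted p of 0.0244 and an adjusted p of 1.00.

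The sestrins Sesn1 and Sesn2 were called lower or did not pass, and none of their estimates against wildtype was above 0. Sestrins are stress-inducible proteins that restrain mTORC1, the kinase complex that couples amino acid supply to protein synthesis, and Sesn2 also senses leucine. Sesn1 (ENSMUSG00000038332, protein-coding, chromosome 10, 41809935 to 41908424, forward strand) had CPM of 36.2, 35.5 and 31.4 in wildtype and 27.0, 27.5 and 23.8 in mutant libraries of group 1. In group 2 its CPM were 24.8, 28.9 and 32.1 in the wildtype arm, 27.6, 22.8 and 22.3 in the mutant arm and 21.9, 21.3 and 23.4 in the low-yield arm. Mutant and wildtype libraries did not overlap in group 1 but did in group 2, where the low-yield libraries lay below all wildtype ones. For Sesn1 the log2 fold change was -0.40 (SE 0.09, adjusted p = 0.0187) in group 1, -0.24 (SE 0.12, adjusted p = 0.289) in group 2 and -0.37 (SE 0.12, adjusted p = 0.0646) in the low-yield arm. Over both groups it was -0.33 (SE 0.08, adjusted p = 0.00989). The call in group 1 was lost without mutant library 3 (adjusted p = 0.103), wildtype library 1 (0.0919) or wildtype library 2 (0.0936). In the low-yield arm Sesn1 passed without wildtype library 1 (-0.45, adjusted p = 0.0208). With 1 library left out, the estimate for Sesn1 in group 2 lay between -0.34 and -0.15.

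Sesn2 (ENSMUSG00000028893, protein-coding, chromosome 4, 132492032 to 132510501, reverse strand) was called lower in the low-yield arm. Its CPM were 46.6, 49.3 and 43.3 in wildtype and 40.4, 43.9 and 40.5 in mutant libraries of group 1. In group 2 they were 76.4, 76.9 and 72.4 in the wildtype arm, 61.6, 75.9 and 65.3 in the mutant arm and 61.7, 54.4 and 61.7 in the low-yield arm. Only the low-yield arm lay wholly below its wildtype, with a log2 fold change of -0.34 (SE 0.09, adjusted p = 0.0265). The values were -0.16 in group 1 (SE 0.08, adjusted p = 0.227), -0.16 in group 2 (SE 0.09, adjusted p = 0.392) and -0.16 over both groups (SE 0.06, adjusted p = 0.0820). The low-yield call was lost without low-yield library 1 (adjusted p = 0.0689), low-yield library 2 (0.146) or wildtype library 2 (0.0934). Over both groups Sesn2 passed without mutant library 2 of group 2 (-0.19, adjusted p = 0.0326). Low-yield against other mutants gave -0.19 (SE 0.09, unadjusted p = 0.0661). With 1 library left out, this value lay between -0.25 and -0.0985, and that of Sesn2 in group 2 between -0.24 and -0.0862.

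Tigar and Ak1 act on sugar and adenine nucleotide metabolism, and neither passed the test in any of the comparisons. Tigar removes a fructose bisphosphate that activates glycolysis and so favours the pentose phosphate pathway, and Ak1 is the cytosolic adenylate kinase that interconverts ATP, ADP and AMP. Both were rare, with 30 to 164 counts per library for Tigar and 15 to 101 for Ak1. Tigar (ENSMUSG00000038028, chromosome 6, 127085116 to 127109557, reverse strand) had CPM of 1.93, 1.48 and 1.23 in wildtype and 1.38, 3.31 and 3.20 in mutant libraries of group 1. In group 2 its CPM were 3.26, 0.867 and 0.757 in the wildtype arm, 1.48, 2.08 and 1.39 in the mutant arm and 1.73, 1.7 and 1.34 in the low-yield arm. Mutant library 1 of group 1 lay within the wildtype range, and wildtype library 1 of group 2 lay above every mutant and low-yield library of group 2. The log2 fold change was 0.77 (SE 0.36, adjusted p = 0.190) in group 1, 0.08 (SE 0.49, adjusted p = 0.950) in group 2, 0.04 (SE 0.48, adjusted p = 0.969) in the low-yield arm and 0.52 (SE 0.32, adjusted p = 0.288) over both groups. Without mutant library 1 the group 1 value was 1.08 (adjusted p = 0.0446). Without wildtype library 1 of group 2 the values were 1.01 (0.152) in group 2, 0.97 (0.128) in the low-yield arm and 0.83 (0.0315) over both groups.

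Ak1 (ENSMUSG00000026817, chromosome 2, 32621758 to 32635058, forward strand) had CPM of 1.37, 1.36 and 1.73 in wildtype and 0.972, 0.967 and 1.09 in mutant libraries of group 1. In group 2 its CPM were 1.33, 1.59 and 1.05 in the wildtype arm, 0.504, 1.12 and 1.39 in the mutant arm and 0.671, 1.03 and 1.51 in the low-yield arm. Mutant libraries lay below wildtype in group 1 and overlapped with wildtype in group 2. For Ak1 the log2 fold change was -0.57 (SE 0.33, adjusted p = 0.294) in group 1, -0.33 (SE 0.44, adjusted p = 0.740) in group 2, -0.23 (SE 0.42, adjusted p = 0.781) in the low-yield arm and -0.47 (SE 0.25, adjusted p = 0.207) over both groups. Without 1 library at a time the estimate for Ak1 lay between -0.71 and -0.0152 in group 2, and between -0.60 and -0.00147 for low-yield libraries.

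**Figure D2:**
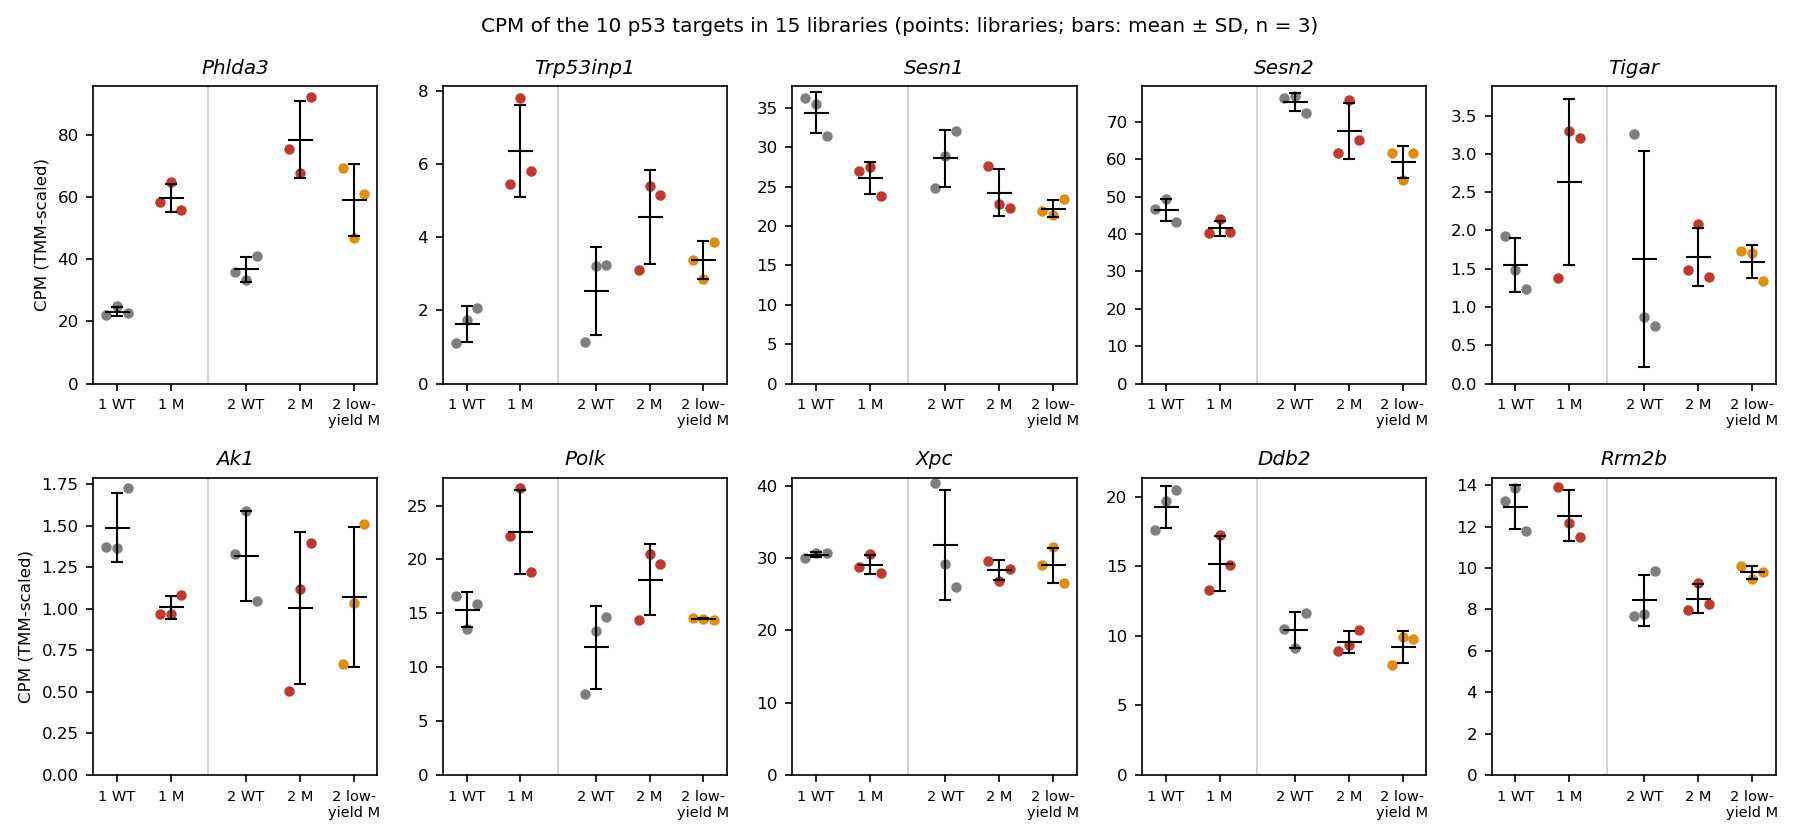
CPM (vertical axes, from 0, scale differs by panel) of each of the 10 genes in the 15 libraries, by group of mice and genotype (WT wildtype, M mutant), with mean and SD of 3 libraries. Phlda3 libraries of mutants all lie above wildtype, at 55.9 to 64.8 in group 1, whereas Rrm2b and Xpc overlap, and a Tigar library of wildtype group 2 stands at 3.26.

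Among the DNA repair genes, Polk was called higher in group 1 and over both groups, and Rrm2b and Xpc were not called. Ddb2 was called with the replicate number as a block, and not by edgeR on all libraries without it. Polk encodes DNA polymerase kappa, which inserts nucleotides opposite bulky lesions when the replicative polymerases stall. The gene (ENSMUSG00000021668, protein-coding) lies on chromosome 13 at 96480690 to 96542579, reverse strand, so that the window printed for it lies inside the gene. Its CPM were 16.6, 13.5 and 15.9 in wildtype and 22.2, 26.6 and 18.8 in mutant libraries of group 1. In group 2 they were 7.50, 13.3 and 14.7 in the wildtype arm, 14.3, 20.5 and 19.6 in the mutant arm and 14.6, 14.5 and 14.4 in the low-yield arm. Mutant and wildtype were separate in group 1 and met at the edge in group 2, where the low-yield libraries lay within the wildtype range. The log2 fold change was 0.56 (SE 0.14, adjusted p = 0.0216) in group 1, 0.60 (SE 0.20, adjusted p = 0.0983) in group 2 and 0.57 (SE 0.14, adjusted p = 0.00699) over both groups. In the low-yield arm it was 0.28 (SE 0.20, adjusted p = 0.430). The group 1 call was lost without mutant library 2 (adjusted p = 0.0709), wildtype library 2 (0.114) or wildtype library 3 (0.0664). Without wildtype library 1 of group 2, the lowest of that arm, the values were 0.38 (0.151) in group 2, 0.05 (0.865) in the low-yield arm and 0.48 (0.00380) over both groups.

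Rrm2b encodes the p53-inducible small subunit of ribonucleotide reductase, which makes deoxynucleotides for repair and for mitochondrial DNA. The gene (ENSMUSG00000022292, chromosome 15, 37923952 to 37961318, reverse strand) had CPM of 13.3, 13.9 and 11.8 in wildtype and 13.9, 12.2 and 11.5 in mutant libraries of group 1. In group 2 its CPM were 7.69, 7.77 and 9.87 in the wildtype arm, 7.96, 9.30 and 8.29 in the mutant arm and 10.1, 9.50 and 9.80 in the low-yield arm. Wildtype and mutant libraries were interleaved in both groups. Its log2 fold change was -0.05 (SE 0.13, adjusted p = 0.848) in group 1, -0.00 (SE 0.16, adjusted p = 0.995) in group 2, 0.20 (SE 0.16, adjusted p = 0.451) in the low-yield arm and -0.03 (SE 0.10, adjusted p = 0.871) over both groups. The low-yield libraries all lay above the mutant ones, with a difference of 0.21 (SE 0.16, unadjusted p = 0.217). Rrm2b transcripts match Gm8616 with 96.1% identity over 1051 bases, so reads could have been split between them.

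Xpc and Ddb2 recognise damage for nucleotide excision repair, Xpc as the sensor of helix distortion and Ddb2 as the part of a ubiquitin ligase that finds lesions made by ultraviolet light. Xpc (ENSMUSG00000030094, chromosome 6, 91489305 to 91515888, reverse strand) had CPM of 30.0, 30.7 and 30.6 in wildtype and 28.8, 30.6 and 28.0 in mutant libraries of group 1. In group 2 its CPM were 40.3, 29.2 and 25.9 in the wildtype arm, 29.6, 26.8 and 28.5 in the mutant arm and 29.0, 31.5 and 26.6 in the low-yield arm. Apart from the high wildtype library 1 of group 2, all libraries of Xpc lay between 25.9 and 31.5 CPM. Its log2 fold change was -0.07 (SE 0.08, adjusted p = 0.654) in group 1, -0.16 (SE 0.14, adjusted p = 0.593) in group 2, -0.13 (SE 0.14, adjusted p = 0.617) in the low-yield arm and -0.11 (SE 0.09, adjusted p = 0.425) over both groups. Without that library the sign turned to 0.05 (0.837) in group 2 and 0.08 (0.691) in the low-yield arm. Over both groups the estimate for Xpc lay between -0.16 and -0.0241 with 1 library left out.

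Ddb2 (ENSMUSG00000002109, chromosome 2, 91211572 to 91236982, reverse strand) had CPM of 17.6, 19.7 and 20.5 in wildtype and 13.3, 17.2 and 15.1 in mutant libraries of group 1. In group 2 its CPM were 10.5, 9.13 and 11.7 in the wildtype arm, 8.94, 9.34 and 10.5 in the mutant arm and 7.90, 9.92 and 9.80 in the low-yield arm. Mutant libraries lay below wildtype ones in group 1 and overlapped with them in group 2. For Ddb2 the log2 fold change was -0.34 (SE 0.12, adjusted p = 0.0913) in group 1, -0.12 (SE 0.16, adjusted p = 0.737) in group 2, -0.18 (SE 0.16, adjusted p = 0.519) in the low-yield arm and -0.25 (SE 0.10, adjusted p = 0.0698) over both groups. With the replicate number as a block in group 1, where pairing by number is uncertain, the adjusted p was 0.0310. With the block over both groups it was 0.0419, and this block also uses the numbers in group 2, where they did not pair the libraries. Ddb2 also passed without mutant library 2 of group 1 (-0.44, 0.0440) and, over both groups, without wildtype library 2 of group 2 (-0.30, 0.0427). Without 1 library at a time the estimate for Ddb2 lay between -0.21 and -0.0263 in group 2, and between -0.27 and -0.0823 for low-yield libraries. Of the exonic bases of Ddb2, 652 (23.8%) overlap Acp2 on the opposite strand. Whether counting used strand is not stated, and if it did not, reads of the 2 genes could not be told apart there. The same holds for 734 bases (8.04%) of Rrm2b with Gm49085 and 122 bases (3.34%) of Tigar with Platr31.

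Levels between genes were compared per kilobase of exon. Phlda3 led in wildtype libraries with 14.9 ± 0.933 CPM per kilobase in group 1 and 23.6 ± 2.57 in group 2 (SD, n = 3), followed by Sesn2 with 13.3 ± 0.865 and 21.7 ± 0.707. The libraries of these 2 genes overlapped in both wildtype groups and separated in the other 3 groups, where Phlda3 stood at 38.3 ± 2.92, 50.4 ± 8.0 and 37.9 ± 7.40. Sesn1 came next with 8.63 ± 0.653 and 7.18 ± 0.914. Ddb2, Xpc, Polk and Rrm2b followed in group 1 wildtype at 7.04, 5.54, 2.76 and 1.42 CPM per kilobase, each apart from its neighbours. In group 2 wildtype Xpc (5.79) overlapped with Sesn1 and stood before Ddb2 (3.81), Polk (2.13) and Rrm2b (0.924). The overlap rests on wildtype library 1, without which Xpc lay at 4.72 to 5.31 and Sesn1 at 7.26 to 8.05. Ak1 (0.574 and 0.510) and Tigar (0.423 and 0.445), which overlapped, and Trp53inp1 (0.253 and 0.390) were lowest in both wildtype groups, where Trp53inp1 lay apart from Tigar in group 1 and overlapped with it in group 2. Without wildtype library 1 of group 2, Tigar stood at 0.222, below Trp53inp1 at 0.497 and Ak1 at 0.508, so that the order of Tigar and Trp53inp1 in that group rests on this library. In the mutant groups Trp53inp1 was at 0.982 in group 1, 0.703 in group 2 and 0.522 in the low-yield arm, overlapping with Tigar in all 3. With the longest transcript in place of all exons the ranks of Xpc, Sesn1, Ddb2, Polk, Tigar, Ak1 and Trp53inp1 shifted by 1 place in some groups.

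Of 35 other targets, 32 were tested over both groups, and 20 were called higher and 1 lower, with a median log2 fold change of 0.46 against -0.07 for the 10 genes. Of all genes, 9.80% were called higher there. In group 1, 13 of 32 were higher, where 5.79% of all genes were, and 1 lower (median 0.48). In group 2, 11 of 31 were higher, where 3.32% of all genes were, and none lower (median 0.40). In the low-yield arm 11 of 31 were higher, where 6.68% of all genes were, and 1 lower (median 0.38). None of 31 was called between low-yield and other mutants. Eda2r, a member of the TNF receptor family, had a log2 fold change of 4.10 over both groups (SE 0.24, adjusted p = 1.06e-09), and Cdkn1a, the cell cycle inhibitor p21, one of 3.81 (SE 0.18, adjusted p = 1.90e-09). Btg2, an antiproliferative gene, was lower (-0.92, SE 0.20, adjusted p = 0.00633). The estimates of Phlda3 and Trp53inp1 were smaller than those of Eda2r and Cdkn1a, and Sesn1 shared its direction with Btg2. The difference between the 10 genes and the other targets was not tested.

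**Figure D3:**
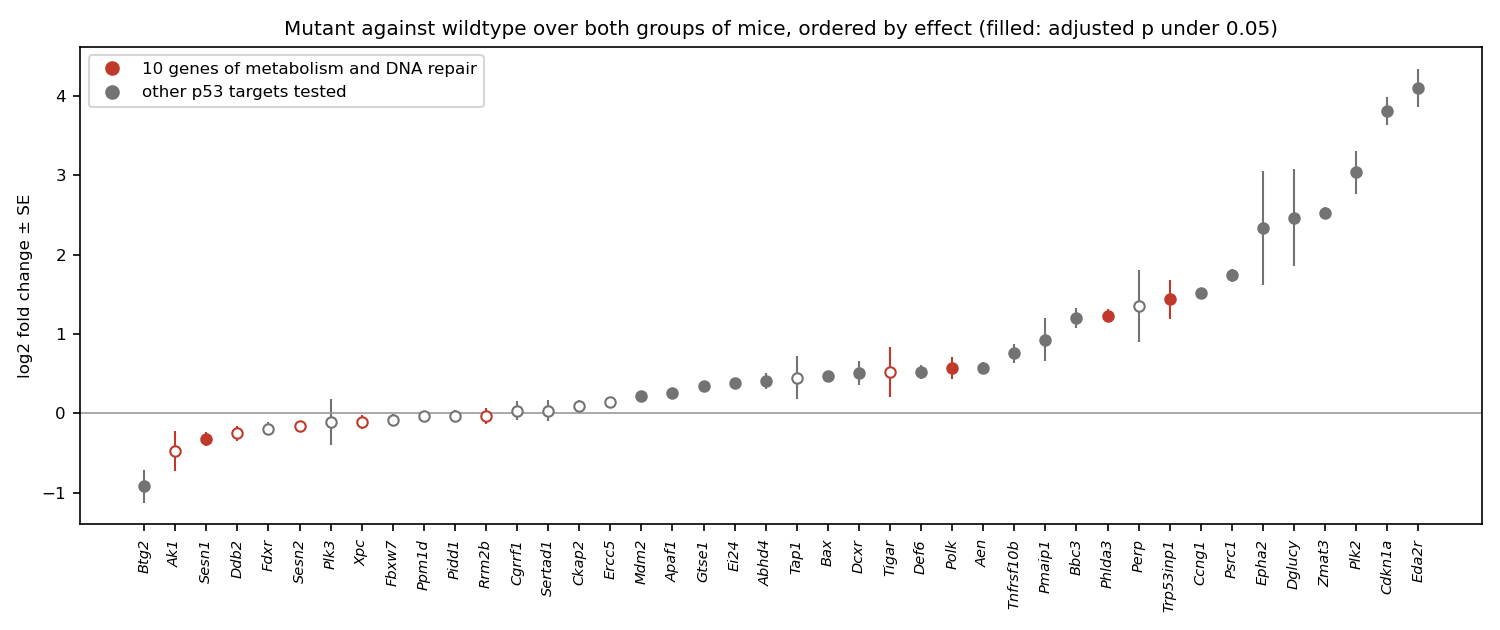
Log2 fold change of mutant against wildtype over both groups of mice (vertical axis, with SE) for the 10 genes and the 32 other p53 targets tested, ordered by size; filled points have an adjusted p under 0.05. Trp53inp1 at 1.44 and Phlda3 at 1.23 lie among the risers below Eda2r at 4.10, and Ak1, Sesn1 and Ddb2 lie at the low end next to Btg2.

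The pathway around the sestrins had calls in both directions over both groups of mice. Of 24 other genes of sestrin and mTORC1 regulation, 2 were called higher and 2 lower, against the 19.6% of all genes called, with a median of -0.03. Prkaa2, a catalytic subunit of the energy sensor AMPK, was at 2.00 (SE 0.42, adjusted p = 0.00170) and Castor1, an arginine sensor, at 0.60 (SE 0.19, adjusted p = 0.0357). Nprl3, part of the complex that inhibits mTORC1 when amino acids are short, was at -0.44 (SE 0.08, adjusted p = 4.62e-04), and Rheb, the activator of mTORC1, at -0.22 (SE 0.07, adjusted p = 0.0416). Prkaa2 was rare, at 0.187 to 1.18 CPM in the means of the 5 groups.

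Sesn2 is also a target of Atf4, the transcription factor of the amino acid and stress response. Of 12 tested Atf4 genes, Sesn2 included, 1 was higher and 3 lower over both groups (median -0.09), where 9.80% of all genes were called in each direction. Psat1, an enzyme of serine synthesis, was at 0.21 (SE 0.05, adjusted p = 0.00969). Chac1, which degrades glutathione, was at -3.30 (SE 0.56, adjusted p = 1.77e-04), at mean levels of 0.854 and 2.24 CPM in the wildtype groups, and Nupr1, a stress-response cofactor, at -1.01 (SE 0.32, adjusted p = 0.0308). Of 12 partners of Trp53inp1 and autophagy genes none was higher and 3 were lower there (median -0.05). The autophagosome proteins Map1lc3a and Map1lc3b were at -0.75 (SE 0.19, adjusted p = 0.00696) and -0.38 (SE 0.08, adjusted p = 0.00142).

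Of 14 tested genes of fructose bisphosphate and pentose phosphate metabolism, around Tigar, 2 were called higher and 5 lower over both groups (median -0.09), where 9.80% of all genes were called in each direction. In group 1 there were 2 higher and 1 lower, where 5.79% of all genes were higher and 6.78% lower. In group 2, where 6.27% of all genes were called, edgeR called none of 14, with 5 at an unadjusted p under 0.05 beside 3071 of all 15024 genes. Pfkfb3, which makes the fructose bisphosphate that Tigar removes, was at 0.78 (SE 0.17, adjusted p = 0.00325) and the phosphofructokinase Pfkp at 0.53 (SE 0.14, adjusted p = 0.0195). The other phosphofructokinases Pfkm and Pfkl were at -0.35 (SE 0.06, adjusted p = 5.73e-04) and -0.21 (SE 0.06, adjusted p = 0.0108). Of 11 tested adenylate and other phosphotransfer kinases, around Ak1, 1 was higher and 3 lower over both groups (median 0.03). The mitochondrial adenylate kinase Ak3 was at 0.20 (SE 0.05, adjusted p = 0.00492), the mitochondrial nucleotide kinase Cmpk2 at -0.73 (SE 0.11, adjusted p = 9.75e-05) and the AMP deaminase Ampd3 of erythrocytes at -0.69 (SE 0.08, adjusted p = 4.80e-06).

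Over both groups 19.6% of all genes were called, and the repair pathways had calls in both directions. Of 25 nucleotide excision repair genes other than Xpc and Ddb2 (Ercc5 is also among the p53 targets), 3 were higher and 4 lower over both groups (median -0.00). Gtf2h1, a subunit of the repair and transcription factor TFIIH, was at 0.42 (SE 0.08, adjusted p = 7.60e-04) and Uvssa, which acts at stalled RNA polymerase, at 0.40 (SE 0.09, adjusted p = 0.00260). Cul4a, the scaffold of the ligase that holds Ddb2, was at -0.44 (SE 0.05, adjusted p = 1.14e-05), and the single-strand binding protein Rpa2 at -0.30 (SE 0.06, adjusted p = 0.00110). Of 13 genes of translesion synthesis besides Polk, 1 was higher and 2 lower (median 0.02). Mad2l2, a subunit of polymerase zeta, was at 0.29 (SE 0.08, adjusted p = 0.0169), the sliding clamp Pcna at -0.37 (SE 0.05, adjusted p = 5.21e-05) and polymerase eta, Polh, at -0.25 (SE 0.06, adjusted p = 0.00621). Of 17 genes of deoxynucleotide supply besides Rrm2b, 4 were higher and 2 lower (median -0.02). The kinase Nme2 was at 0.57 (SE 0.09, adjusted p = 1.62e-04), the mitochondrial kinase Dguok at -0.38 (SE 0.12, adjusted p = 0.0256) and Rrm1, the large subunit that pairs with Rrm2b, at -0.16 (SE 0.05, adjusted p = 0.0235). Cda, cytidine deaminase, was at 3.12 (SE 0.80, adjusted p = 0.00664) but under 0.4 CPM in every group mean. It did not pass the filter on low counts in group 1. It was not called in group 2 (2.64, SE 1.33, adjusted p = 0.276) or in the low-yield arm (3.27, SE 1.17, adjusted p = 0.0771).

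For the 4 genes called over both groups, the genes with the most similar pattern were sought among 10168 genes. Likeness was the root mean square difference of log2 CPM, with 2 added to the CPM, each relative to the wildtype mean of its group of mice, over the 15 libraries. The added 2 shrinks differences of genes at low levels. Trp53inp1 lay at 1.05 to 1.44 on this scale in mutant libraries of group 1, where its log2 fold change was 1.95. The nearest to Phlda3 were Tmem98 (0.211), Raver2 (0.235) and Foxh1 (0.247), and to Trp53inp1 Pou2f2 (0.302), Slc19a2 (0.308) and Reep1 (0.311). The nearest to Polk were Rbms1 (0.181), Ddias (0.181) and Exoc4 (0.190). Those nearest to Sesn1 were Uap1 (0.0883), Akip1 (0.0884) and D230025D16Rik (0.0885). The distance is not scaled to effect size or noise, so its values cannot be compared between the 4 genes.

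**Figure D4:**
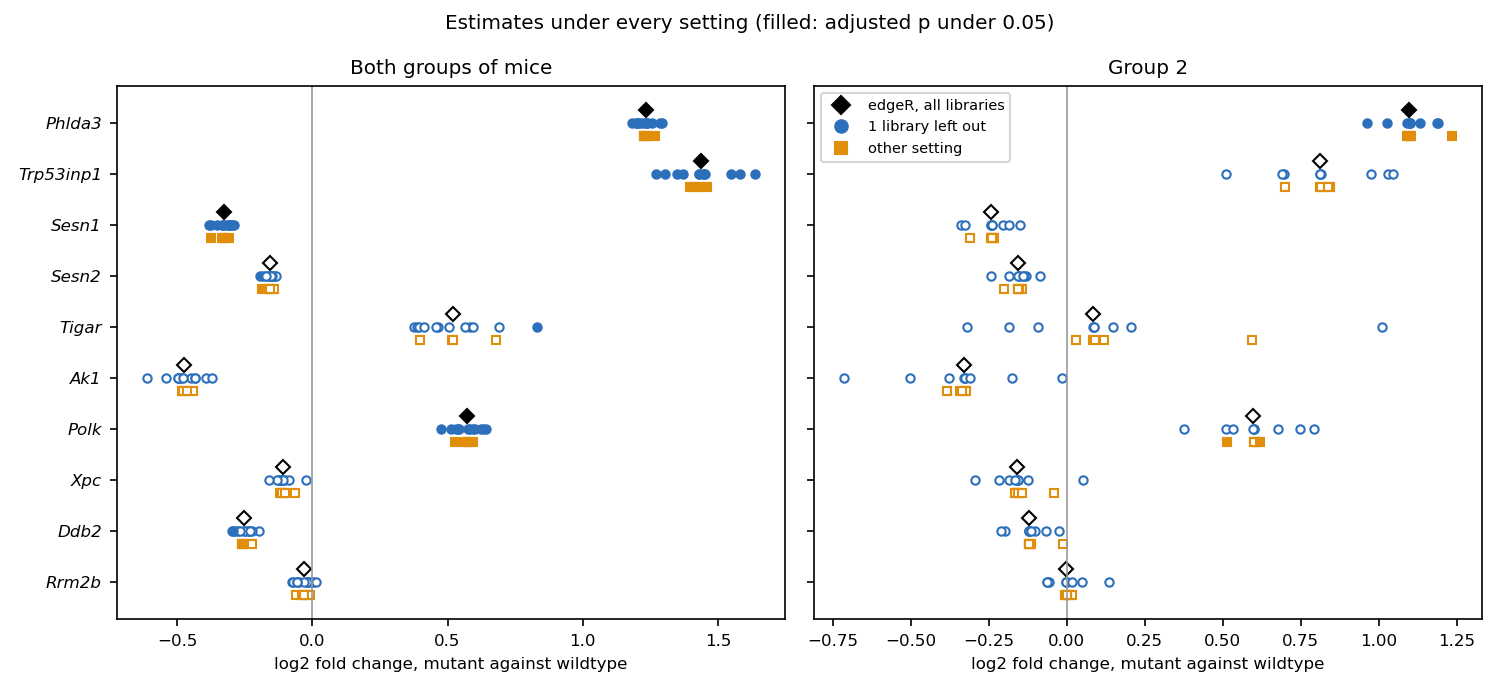
Log2 fold change of mutant against wildtype (horizontal axes) for the 10 genes over both groups of mice and in group 2, with all libraries, with 1 library left out and under other settings; filled symbols have an adjusted p under 0.05. Phlda3 stays between 1.18 and 1.29 over both groups and filled throughout, while Tigar in group 2 spans -0.32 to 1.01.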

How the data were processed

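Expression was measured by RNA sequencing in 15 libraries. Per the labels, RNA came from the RNeasy Micro Kit, and 151 bp paired-end reads (NovaSeq) were demultiplexed with BCL Convert 3.9.3. The submitters' processing notes name cutadapt 2.3, FastQC 0.11.8, STAR 2.7.8a, RSEM 1.3.3, MultiQC 1.7 and GRCm38. The annotation release and strand setting are not given in the sources used here. Per the file headers, the authors deposited expected counts for each gene, which were whole numbers and not normalised. The rows of reporter sequences, 4 and 5 in the 2 tables with 5 counts in all, were kept out.

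The test was that of edgeR 4.0.16 (R 4.3.3; TMM, filterByExpr, robust quasi-likelihood F test, two-sided, Benjamini-Hochberg over all genes tested, threshold 0.05). Group 1 was fitted on 6 libraries and group 2 on all 9. The comparison over both groups used 12 libraries and had the group of mice as a term, and an interaction term tested whether the effect differed. Expression varied between replicates with a biological coefficient of 22.4% (group 1) and 19.9% (group 2), and no pair of replicates agreed within sampling noise. Within group 1, libraries with the same replicate number had correlations of deviations from the group means of 0.61, 0.25 and 0.29. Differently numbered pairs ran from -0.53 to 0.37, the latter for wildtype library 3 with mutant library 2. Pairing by number is therefore uncertain, and fits with that number as a block are given where they change a call. Alternatives were DESeq2 1.42.0, limma 3.58.1 voom, other size factors, other filters, the replicate block, edgeR's legacy mode (added after seeing the data) and leaving out each library (for levels, 1 library, added after seeing the data).

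The members and the lists of other p53 targets, pathways and markers were chosen with earlier results of these data known. Named beside the 10 members are, per list, up to 2 genes with the largest increase and 2 with the largest decrease among those called over both groups, and the 3 nearest genes in pattern. Some of the genes that this rule names are not reported here. Exons and coordinates come from GENCODE M21 (GRCm38), which holds 99.5% of the 55487 genes, promoters from RefSeq, and near copies were sought with blastn 2.17.0.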

Additional observations from a re-analysis of the deposited data

How the results depend on the processing

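Counts were lowest for Ak1, Tigar and Trp53inp1, from 15 in a library. Over both groups, the calls of Phlda3, Trp53inp1, Sesn1 and Polk held under every alternative that gave a value. A filter at a mean CPM of 5 left Tigar, Trp53inp1 and Ak1 without one. In group 1 the replicate block changed the call of Ddb2 and of no other member. The count of genes called was 2863 in group 1 with the replicate block, 1452 (DESeq2) and 2000 (voom) in group 2, 3399 (voom) in the low-yield arm, 6 (DESeq2) and 4 (voom) between low-yield and other mutants, and 13 (DESeq2) and 5 (replicate block) for the interaction. In group 2, voom and the replicate block each called 2 of the 10 genes, adding Polk (adjusted p = 0.0484 and 0.0259). In group 2 the numbers did not pair the libraries: same-numbered wildtype and mutant libraries correlated at 0.36, 0.25 and 0.00048, and the low-yield ones at -0.15 to 0.18. Over both groups the block gave Ddb2 an adjusted p of 0.0419 and voom one of 0.0493, and Sesn2 passed with DESeq2 (0.0459) and voom (0.0201), as Sesn1 did in the low-yield arm (0.0477 and 0.0119). The causes were not tested.

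Leaving out 1 library at a time gave 753 to 1729 genes called in group 1, 425 to 1323 in group 2, 900 to 2395 in the low-yield arm and 0 to 22 between low-yield and other mutants. Between 2 and 5 members were called in group 1 and between 1 and 3 in the low-yield arm. Some values changed sign, in comparisons where the gene was not called. Rrm2b in group 2 was at 0.00800 (DESeq2), 0.0104 (legacy mode), 0.0164 (mean CPM of at least 5) and 0.00167 (replicate block). Tigar in the low-yield arm was at -0.0252 (DESeq2) and -0.0232 (legacy mode). Between low-yield and other mutants voom gave Tigar 0.138 and Ak1 -0.248. In the interaction Sesn2 was at -0.00664 (DESeq2) and -0.00757 (other size factors) and Xpc at 0.0702 (voom). With 1 library left out, Rrm2b ranged from -0.127 to 0.0155 in group 1, -0.0635 to 0.135 in group 2 and -0.0758 to 0.0147 over both groups. Tigar was at -0.321 to 1.01 in group 2 and -0.361 to 0.967 in the low-yield arm, and Xpc at -0.293 to 0.0518 and -0.260 to 0.0808. Between low-yield and other mutants the ranges were -0.164 to 0.135 (Tigar), -0.0271 to 0.0923 (Xpc), -0.110 to 0.0374 (Ddb2) and -0.271 to 0.484 (Ak1). For the interaction they were -0.0802 to 0.0786 (Sesn2), -1.11 to 0.215 (Tigar), -0.0422 to 0.164 (Rrm2b), -0.242 to 0.0965 (Xpc), -0.202 to 0.217 (Polk) and -0.158 to 0.534 (Ak1).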

Other observations

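Markers of other blood and vessel cells were present at low to moderate levels and are given as values. Of 8 tested early progenitor markers, 3 were called higher over both groups, where 9.80% of all genes were called higher and 9.80% lower, and the 9 markers summed to 488 to 633 CPM in wildtype and 548 to 672 CPM in mutant libraries of group 1. In group 2 they summed to 433 to 585 CPM in wildtype, 582 to 681 CPM in mutant and 598 to 725 CPM in low-yield mutant libraries. The 7 megakaryocyte markers summed to between 23.6 and 50.8 CPM over the 15 libraries, with 1 called higher and 1 lower over both groups, against 3 higher and 1 lower of 6 tested in the low-yield arm, where 6.68% of all genes were called higher and 5.86% lower. The 5 endothelial markers summed to between 0.809 and 9.67 CPM, and 1 of 4 tested was called higher over both groups, against 3 of 3 in the low-yield arm.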
